A study of Homo sapiens with 6 samples.

Results

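Interleukins and chemokines are small secreted proteins through which cells signal to one another, and the RNA levels of their genes were compared here in PC3 cells transfected with a control siRNA or with siRNA against CITED2. The members were all gene symbols of the form IL, CXCL or CCL followed by a number, with a final letter from A to G allowed for interleukins, plus LIF. This rule gave 78 of the 24462 symbols counted, namely 40 interleukins including LIF, 14 CXCL and 24 CCL chemokines. PC3 is an established human prostate cancer cell line derived from a bone metastasis, grown in RPMI1640 with 10% serum. Each of the 6 cultures received 80 nM siRNA for 72 h, and 3 were labelled si-Control (non-targeting) and 3 si-CITED2 (targeting CITED2, a transcriptional coregulator). All 6 cultures were therefore transfected, no untransfected cells were analysed here, and all came from the same cell line. The labels number the libraries of each group, and the study describes the transfection and RNA-seq as repeated independently. The p-values set the difference between the groups against the spread between these libraries, with information on spread shared across genes.

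Interleukins act mainly through receptors that pass the signal to JAK kinases and STAT factors, or, for the IL-1 family, to NF-kappaB. The ligands of the IL-6 family, among them IL6, IL11 and LIF, share the receptor chain IL6ST (gp130). Chemokines bind G protein-coupled receptors and steer the movement of leukocytes, and the group around CXCL8 attracts neutrophils through CXCR1 and CXCR2. Carcinoma cells in culture commonly make several of these ligands, and many of their genes are known targets of NF-kappaB and AP-1, with short-lived mRNAs.

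CITED2 itself gave 858.6, 892 and 773.1 normalized counts in the libraries labelled si-Control and 1084.3, 921.1 and 983.8 in those labelled si-CITED2. A normalized count is the read count scaled to the average library size after TMM adjustment. CITED2 mRNA was thus not lower but higher in all 3 libraries labelled si-CITED2 than in any labelled si-Control (log2 fold change 0.24, SE 0.07, adjusted p = 0.03626). The adjusted p of CITED2 was above 0.05 in 4 of the 6 fits that left out 1 library, those without si-Control 1 (0.05363), without si-Control 3 (0.1408), without si-CITED2 1 (0.1539) and without si-CITED2 3 (0.08461). The study checked the knockdown on CITED2 protein by immunoblot, which was not analysed here. Because the targeted mRNA in these libraries goes against the labels, every direction given here is one between libraries labelled si-CITED2 and libraries labelled si-Control, and positive log2 fold changes are higher in the libraries labelled si-CITED2.

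The libraries held 19508925 to 28936374 counts each, so that 3 counts, taken as the limit of detection, stood for 0.104 to 0.154 CPM (counts scaled to a common library total). All 6 markers chosen for epithelium and PC3 (KRT8, KRT18, KRT19, EPCAM, CDH1 and, for PC3, VIM) were present in every library, with summed levels of 3050 to 3230 CPM in the si-Control and 3450 to 3690 CPM in the si-CITED2 libraries. They moved in both directions, since VIM (log2 fold change 0.26), KRT8 (0.24) and KRT18 (0.18) were higher in the libraries labelled si-CITED2, and CDH1 (-0.52, adjusted p = 1.673e-05) and EPCAM (-0.33, adjusted p = 1.101e-03) were lower. The luminal prostate genes KLK2 and FOLH1 had no count in any library. Of 15 leukocyte markers, CD2 and CD3D were at 0 in all libraries and PTPRC (CD45) had 2, 2 and 1 counts under si-Control and 0 in each library labelled si-CITED2. CSF1R went the other way, with 11, 6 and 5 against 32, 28 and 9 counts, and did not pass the filter on low counts. LYZ had 10, 20 and 27 against 21, 36 and 40 counts (log2 fold change 0.93, adjusted p = 0.1067). CD68, a lysosomal gene that epithelial lines also express, held nearly all counts of that list, and the other 14 summed to 2.25 to 2.97 CPM in the si-Control and 3.83 to 4.34 CPM in the si-CITED2 libraries, with no count above 40. The part of these markers in the results was not tested, and in bulk RNA fewer cells of a type and less RNA per cell cannot be told apart.

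IL11 and IL6 rose, IL24 fell, and smaller changes were found for IL32, CXCL1, CCL28 and CXCL8. Of the 78 ligand genes, 26 had enough reads for the test (12 interleukins including LIF, 10 CXCL and 4 CCL genes), and 52 did not pass the filter on low counts. Of the 26, 5 were higher in the libraries labelled si-CITED2 at an adjusted p under 0.05 (19.2%, against 9.36% of all 16314 genes tested) and 2 were lower (7.69%, against 8.09% of all genes). In all, 26.9% of the tested ligands passed the threshold, against 17.4% of all genes. The values of the 2 groups did not overlap for 10 of the 26 (38.5%, against 32.5% of all genes). The median log2 fold change of the tested ligands was 0.18 and that of all genes was -0.001, while the medians of the absolute values were 0.35 and 0.14. The count of higher ligands fell to 3 without si-CITED2 replicate 2, which left IL11, IL6 and IL32, and the count of lower ligands fell to 1, IL24, without si-CITED2 replicate 3. Calls over all genes fell as well, to 1135 of 16406 higher in the former fit and 897 of 16695 lower in the latter. With a fold change over 1.5 also required, 2 were higher (IL11 and IL6) and 1 was lower (IL24), against 3% and 0.778% of all genes.

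**Figure D1:**
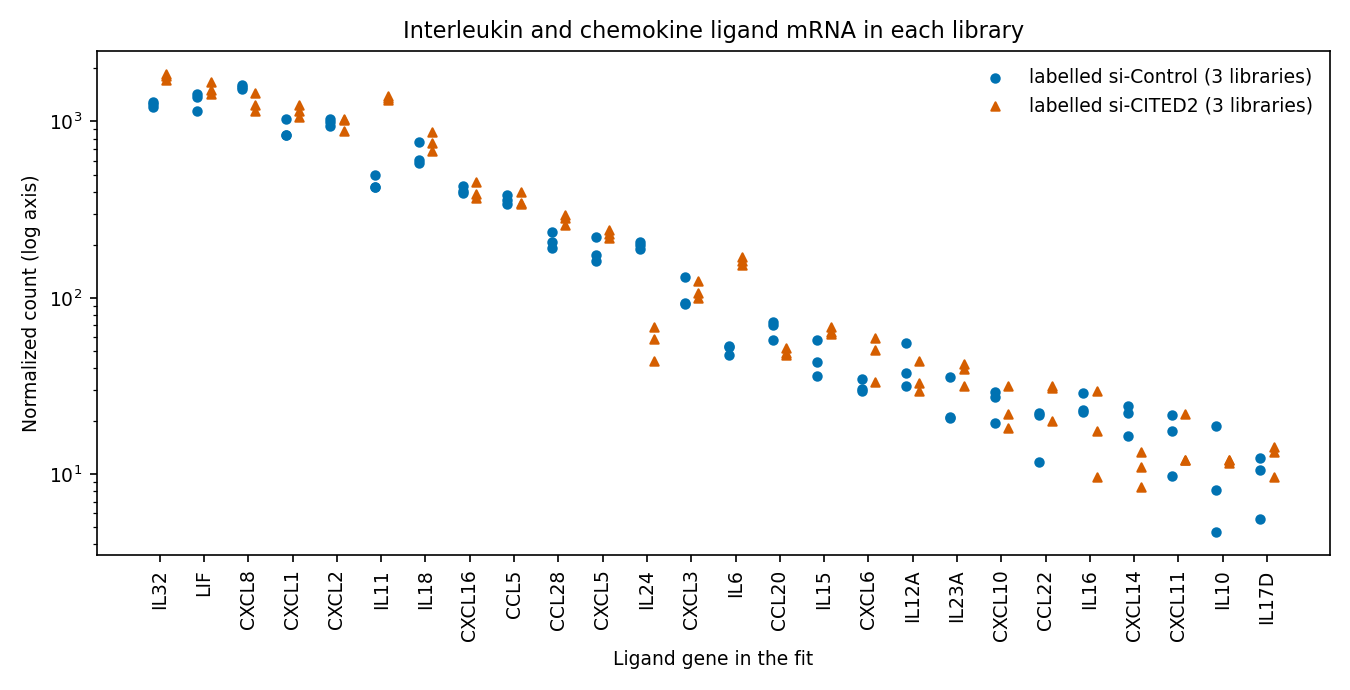
Normalized read counts (log axis) of the 26 tested ligand genes in each library, with 1 point per library and colour for the group. The points of IL24, IL6 and IL11 fall into separate groups, while those of CXCL2, CXCL16 and CCL5 overlap. Heights of different genes are read counts not divided by transcript length and cannot be compared as transcript levels.

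The ligand genes together gave 9240.2, 9045.9 and 8848.6 normalized counts in the libraries labelled si-Control and 10550.4, 11305.9 and 10792.4 in those labelled si-CITED2. The sum was therefore higher in every library labelled si-CITED2, with means of 9044.9 ± 195.8 and 10882.9 ± 385.8 (SD, n = 3 each). The 8 genes IL32, CXCL8, LIF, CXCL1, CXCL2, IL11, IL18 and CXCL16 held 82.7 to 85.6% of the ligand reads of each library. All ligand reads made up 0.0378 to 0.0391% of the counts of the si-Control libraries and 0.0446 to 0.0477% of those labelled si-CITED2.

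Promoters are printed for IL11, IL6, IL24, CXCL8 and CXCL1, which changed, and for CXCL2 and CXCL3, the closest relatives of CXCL1, which were not called. The RefSeq promoter table (GRCh38.p14) had an entry for 21 of the 26 tested ligands and none for CCL5, CXCL16, IL15, IL18 and LIF. Each entry spans 250 bases before and 50 after the start of the gene, and the last 150 bases before the start are printed 5′ to 3′ on the strand of the gene, with capitals for matches to the motifs searched. These were GGNNTTTCC for NF-kappaB, TGANTCA for AP-1, TTCNNNGAA for STAT factors and, for the interferon-stimulated response element (ISRE), GAAA followed by any 2 bases and GAAA again, each on both strands. The deposited counts rest on hg19, another build, so these coordinates belong to the sequences only.
IL11, chr19:55370464-55370613, minus strand: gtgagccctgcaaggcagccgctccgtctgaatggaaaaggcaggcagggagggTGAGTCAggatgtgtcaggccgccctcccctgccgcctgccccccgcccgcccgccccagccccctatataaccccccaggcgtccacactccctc
IL6, chr7:22727050-22727199, plus strand: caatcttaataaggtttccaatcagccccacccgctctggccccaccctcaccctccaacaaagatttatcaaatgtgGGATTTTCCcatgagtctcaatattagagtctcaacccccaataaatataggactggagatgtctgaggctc
IL24, chr1:206897293-206897442, plus strand: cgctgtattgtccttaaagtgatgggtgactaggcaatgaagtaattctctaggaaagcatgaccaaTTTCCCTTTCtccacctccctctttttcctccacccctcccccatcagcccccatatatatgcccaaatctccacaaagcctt
CXCL8, chr4:73740419-73740568, plus strand: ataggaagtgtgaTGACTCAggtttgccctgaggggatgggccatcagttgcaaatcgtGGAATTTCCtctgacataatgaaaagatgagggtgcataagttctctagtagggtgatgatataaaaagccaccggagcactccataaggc
CXCL1, chr4:73869243-73869392, plus strand: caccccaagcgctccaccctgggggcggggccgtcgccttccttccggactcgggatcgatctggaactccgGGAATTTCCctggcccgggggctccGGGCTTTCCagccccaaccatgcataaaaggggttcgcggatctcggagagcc
CXCL2, chr4:74099196-74099345, minus strand: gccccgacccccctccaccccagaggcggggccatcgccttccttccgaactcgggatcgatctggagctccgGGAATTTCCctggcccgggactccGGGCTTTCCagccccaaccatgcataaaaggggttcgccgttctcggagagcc
CXCL3, chr4:74038690-74038839, minus strand: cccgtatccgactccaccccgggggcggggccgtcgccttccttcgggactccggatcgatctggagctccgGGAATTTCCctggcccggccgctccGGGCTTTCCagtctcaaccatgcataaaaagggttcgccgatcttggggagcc

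NF-kappaB matches occurred in 11 of the 21 entries (52.4%), against 6.26% of all 35116 promoters of the table. The 11 were CCL20, CXCL1, CXCL2, CXCL3, CXCL5, CXCL6, CXCL8, CXCL10, CXCL11, IL6 and IL32. These include IL6, IL32 and CXCL1, which rose, and CXCL8, which fell. AP-1 matches were found in CXCL8, CXCL11, CXCL14, IL11 and IL23A (23.8%, against 7.71% of all promoters), STAT matches in CXCL5, CXCL6, CXCL11 and IL17D (19%, against 7.66%), and ISRE matches in CXCL10, IL12A and IL24 (14.3%, against 3.57%). Counted from the start of the gene, the NF-kappaB match of IL6 begins at position -72, the AP-1 match of IL11 at -96 and the ISRE match of IL24, which reads on the other strand, at -83. CXCL8 holds an AP-1 match at -137 and an NF-kappaB match at -91. In CXCL1, CXCL2 and CXCL3 a pair of NF-kappaB matches lies at nearly the same distances. The printed windows of CXCL1 and CXCL3 are identical at 129 of 150 positions (86%), compared base by base without gaps. At the best shift, also without gaps, CXCL1 and CXCL2 were identical at 66.7% of positions and CXCL2 and CXCL3 at 65.3%. A match says only that these letters are present, and chemokine genes of this family share ancestry, so their matches are not separate observations.

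**Figure D2:**
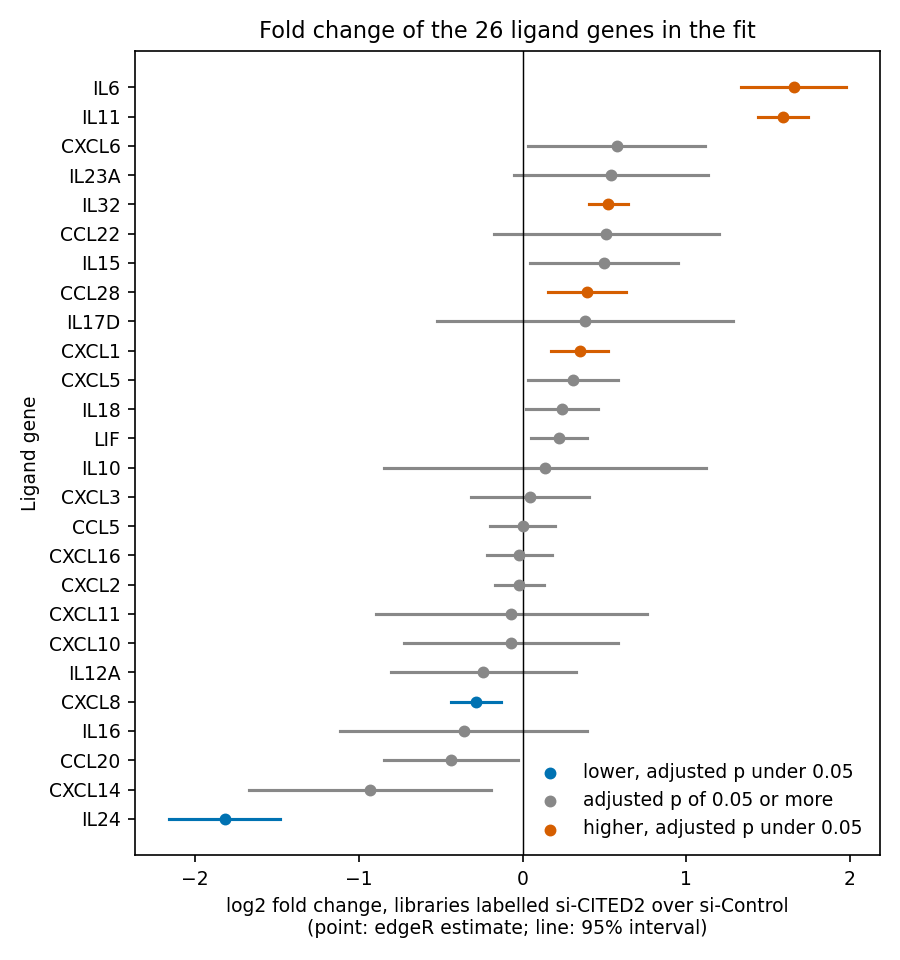
Log2 fold change of the 26 tested ligand genes, libraries labelled si-CITED2 over si-Control, from edgeR, with points for the estimate, bars for the 95% interval and colour for the call. IL6 (1.66) and IL11 (1.59) lie far to the right and IL24 (-1.82) far to the left, and the other called ligands lie between -0.29 (CXCL8) and 0.52 (IL32).

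IL24 belongs to the IL-10 family and was the ligand that fell furthest. Its normalized counts were 190.2, 198.1 and 207.1 in the libraries labelled si-Control and 68.0, 44.0 and 58.1 in those labelled si-CITED2. Every library labelled si-CITED2 was below every si-Control library, and the spread within each group was small beside the gap (means 198.4 ± 8.5 and 56.7 ± 12.1, SD, n = 3 each). The log2 fold change was -1.82 (SE 0.16, 95% interval -2.16 to -1.48, adjusted p = 4.121e-07). Ordered by log2 fold change, IL24 was in place 3 from the lowest of all 16314 genes. It rested on 214, 246 and 176 reads against 56, 46 and 53, and it passed the threshold in all 12 alternative fits, with values from -1.97 to -1.66.

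On chromosome 1, IL24 lies in a row with IL10, IL19 and IL20, further members of the family. IL10, an anti-inflammatory cytokine, gave only 18.7, 8.1 and 4.7 against 12.1, 11.5 and 12.1 normalized counts (log2 fold change 0.14, 95% interval -0.85 to 1.12, adjusted p = 0.8844). Its groups overlapped. IL19 did not pass the filter, with 11, 19 and 7 counts in the si-Control and 9, 10 and 9 in the si-CITED2 libraries. IL20 had at most 4 counts in any library. The count of IL24 divided by that of IL19 within the same library was 12.9 to 25.1 in the si-Control libraries and 4.6 to 6.22 in those labelled si-CITED2, a ratio chosen after the values were seen and not tested. IL24, IL19 and IL20 signal through IL20RB paired with IL20RA, and IL24 and IL20 also through IL20RB paired with IL22RA1. IL20RB had 38.2, 29 and 22.4 against 32.8, 29.6 and 34.0 normalized counts (log2 fold change 0.09, adjusted p = 0.8758) and IL22RA1 96.9, 95 and 93.0 against 85.0, 98.4 and 81.1 (-0.10, adjusted p = 0.7226), so both overlapped between groups. IL20RA had 0 to 2 counts per library.

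IL11 and IL6 rose by similar factors, 3.012 and 3.149. IL11, a cytokine of the IL-6 family known for its role in osteoclast formation and fibrosis, had 426.6, 494.3 and 427.1 normalized counts in the libraries labelled si-Control. In those labelled si-CITED2 it had 1364.8, 1385.5 and 1323.4. The lowest of the latter was well above the highest of the former (log2 fold change 1.59, SE 0.07, 95% interval 1.44 to 1.74, adjusted p = 7.007e-11). IL6, the acute-phase cytokine of the family, had 52.4, 53.1 and 47.1 normalized counts in the si-Control libraries and 161.5, 152.9 and 169.8 in those labelled si-CITED2. Its groups were as clearly apart, at a lower depth (log2 fold change 1.66, SE 0.15, 95% interval 1.34 to 1.98, adjusted p = 6.036e-07). The exons of IL6 overlap STEAP1B on the other strand, and whether the counting used strand is not given in the sources used here. STEAP1B had 160, 106 and 132 counts against 106, 153 and 157 (log2 fold change 0.24, adjusted p = 0.449). Among all genes ordered from the highest log2 fold change, IL6 stood in place 101 and IL11 in place 112, and both passed the threshold in all 12 alternative fits (IL11 1.55 to 1.67, IL6 1.61 to 1.69).

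LIF, which sustains stem cell and implantation programmes through LIFR and IL6ST, differed much less. It had 1144.8, 1437.9 and 1374.3 normalized counts in the si-Control libraries and 1425.5, 1682.6 and 1500.9 in those labelled si-CITED2. The groups overlapped, since si-Control 2 was above si-CITED2 1, and the adjusted p was 0.07204 (log2 fold change 0.22, SE 0.08, 95% interval 0.05 to 0.39). Without si-Control replicate 2 it was 0.04082 and with no filter on low counts 0.02696. Within each library the count of IL11 was 0.311 to 0.373 of that of LIF in the si-Control libraries and 0.823 to 0.957 in those labelled si-CITED2, so the reads of these relatives changed unequally whatever the scaling. The ratio of IL6 to LIF counts went from 0.0342 to 0.0458 in the si-Control to 0.0909 to 0.113 in the si-CITED2 libraries. Both ratios were chosen after the values were seen and carry no test.

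Of the receptors of this family, the common chain rose and the IL6-binding chain fell. IL6ST had 5931.8, 5535.0 and 6696.3 against 7581.8, 6905.4 and 7209.8 normalized counts (log2 fold change 0.26, SE 0.06, adjusted p = 8.599e-03), with no overlap. IL6R had 675.5, 695.6 and 704.8 against 468.7, 577.1 and 496.3 (log2 fold change -0.42, adjusted p = 1.42e-03), again without overlap. IL11RA, the chain that binds IL11, had 77.3, 103.1 and 111.8 against 128.7, 113.7 and 129.3 and missed the threshold (0.35, adjusted p = 0.1588). LIFR was at 0.01 (adjusted p = 0.9449), whereas OSMR, the oncostatin M receptor chain that also pairs with IL6ST, rose by 0.46 on the log2 scale (adjusted p = 1.023e-04), as did IL31RA (0.57, adjusted p = 5.239e-04) and IL27RA (0.32, adjusted p = 3.041e-03).

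**Figure D3:**
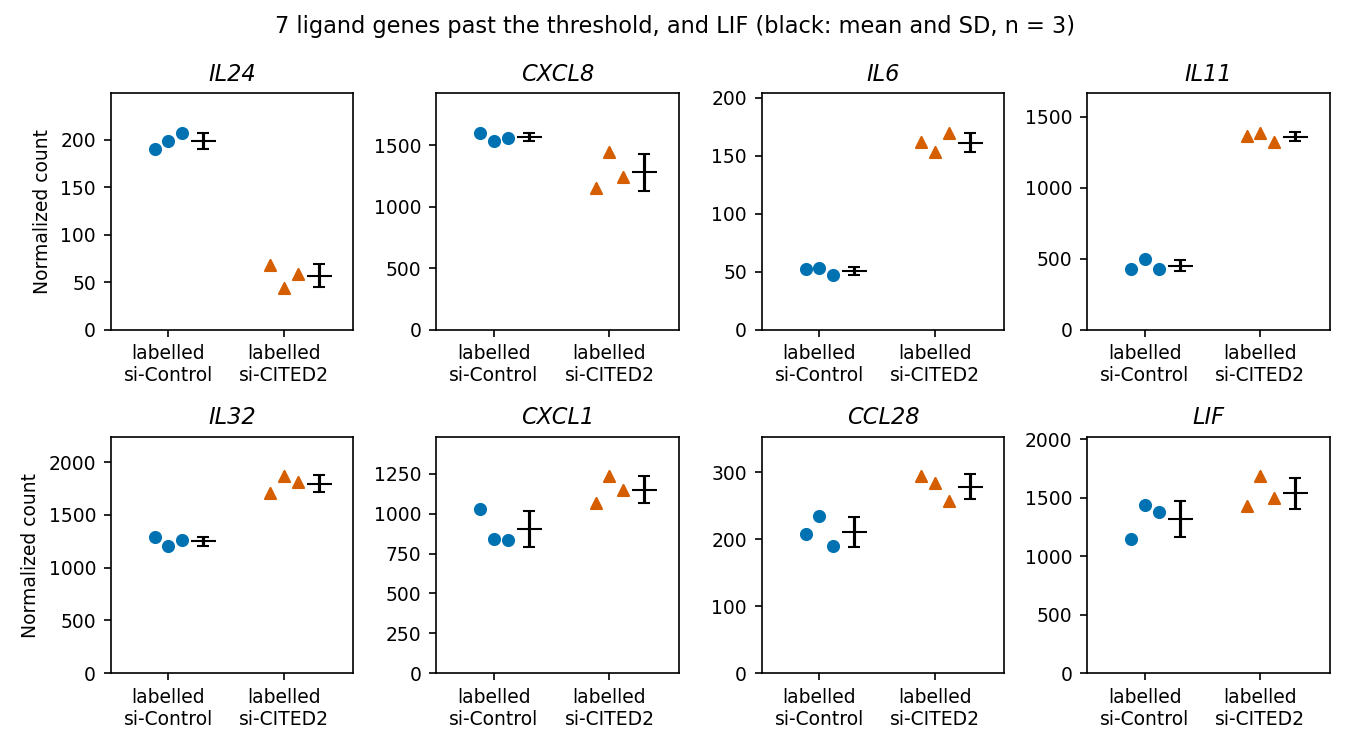
Normalized read counts (linear axes from 0) of the 7 ligand genes with an adjusted p under 0.05 and of LIF, with 1 point per library and, in black, the mean and SD of each group of 3. The groups overlap for LIF and are separate in the other 7, with the widest relative gaps in IL24, IL6 and IL11 and a narrow one in CXCL8, where si-CITED2 2 (1445.7) lies near the si-Control libraries (lowest 1534.5).

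IL32, an inflammatory cytokine without a settled receptor that is made by epithelial cells as well as lymphocytes, rose. It had 1286.1, 1206.0 and 1257.8 normalized counts in the si-Control libraries and 1708.5, 1865.1 and 1814.2 in those labelled si-CITED2. The groups did not overlap, and the log2 fold change was 0.52 (SE 0.06, 95% interval 0.40 to 0.65, adjusted p = 5.2e-06). It passed the threshold in all 12 alternative fits (0.49 to 0.56).

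IL18, an IL-1 family member that is cut to its active form by caspase-1, had 763.5, 580.5 and 601.3 normalized counts against 869.4, 680.3 and 757.0. These overlapped (log2 fold change 0.24, SE 0.10, 95% interval 0.02 to 0.46, adjusted p = 0.1318), and without si-Control replicate 1 the adjusted p was 0.01313. IL18BP, the secreted protein that neutralises IL18, rose, with 125.3, 173.9 and 125.9 against 274.4, 177.7 and 202.7 normalized counts (log2 fold change 0.60, adjusted p = 0.02034). Its call was lost without si-Control 1, without si-Control 3 and without si-CITED2 1. The founders of the IL-1 family were near the limit of detection, with 3, 2 and 2 against 1, 1 and 2 counts for IL1A and 3, 0 and 0 against 0, 3 and 0 for IL1B. Of the IL-1 receptor chains, IL1R1 was at -0.25 (adjusted p = 0.08615), IL1RAP at 0.12 (adjusted p = 0.3606) and IL1RL1, the IL33 receptor, at 0.63 (adjusted p = 0.06146). IL33 had no count in any library. Among inhibitors and processing genes, IL18BP was the only one called of 3 tested, beside CASP4 (0.01) and NLRP3 (0.74, adjusted p = 0.3945), while CASP1 had 0 to 2 and IL1RN 0 to 5 counts per library.

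The remaining interleukins had low counts. IL15, which sustains natural killer and memory T cells, had 57.8, 36.2 and 43.5 normalized counts against 64.4, 62.1 and 67.9. All 3 libraries labelled si-CITED2 were above the si-Control libraries, but the adjusted p was 0.1285 (log2 fold change 0.50, 95% interval 0.05 to 0.95), and 0.03821 without si-Control replicate 1. IL23A, a subunit of IL-23, had 35.6, 20.9 and 21.2 against 31.6, 42.0 and 39.4 (0.54, 95% interval -0.05 to 1.13, adjusted p = 0.2195). IL12A, a subunit of IL-12, had 37.3, 55.6 and 31.8 against 32.8, 44.0 and 29.6 (-0.24, 95% interval -0.80 to 0.32, adjusted p = 0.6135). Values of IL23A and of IL12A overlapped between groups. IL16, a chemoattractant of CD4+ cells, ranged from 9.7 to 29.6 over all libraries (-0.36, 95% interval -1.11 to 0.39, adjusted p = 0.5619), and IL17D from 5.6 to 14.2 (0.38, 95% interval -0.52 to 1.29, adjusted p = 0.617). Each of these 5 intervals reaches past 0.39, the size of the change called for CCL28, in at least 1 direction.

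The neutrophil chemokines, CXCL1, CXCL2, CXCL3, CXCL5, CXCL6 and CXCL8, lie near one another on chromosome 4, and CXCL1 rose while CXCL8 fell. CXCL8 (interleukin 8) had 1600.7, 1534.5 and 1560.2 normalized counts in the si-Control libraries and 1152.3, 1445.7 and 1243.4 in those labelled si-CITED2. It fell, with no overlap but with wide spread in the latter group (log2 fold change -0.29, SE 0.07, 95% interval -0.44 to -0.13, adjusted p = 0.01028). The call was lost without si-CITED2 replicate 3 (adjusted p = 0.05576) and held in the other 11 alternative fits.

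CXCL1, a close relative, had 1032.8, 841.3 and 834.2 normalized counts in the si-Control libraries and 1064.9, 1234.5 and 1148.1 in those labelled si-CITED2. The gap between si-Control 1 and si-CITED2 1 was small (log2 fold change 0.35, SE 0.08, 95% interval 0.17 to 0.52, adjusted p = 6.925e-03), and without si-CITED2 replicate 2 the adjusted p was 0.0593. CXCL2 had 989.2, 1027.3 and 943.7 against 877.9, 1012.8 and 1030.9, which overlapped, with a log2 fold change of -0.02 (95% interval -0.17 to 0.13, adjusted p = 0.8947). CXCL3 had 131.5, 93.4 and 91.8 against 123.9, 99.4 and 106.3, also overlapping (0.05, 95% interval -0.32 to 0.41, adjusted p = 0.8924). These 3 genes are close in sequence, and how reads that match several of them were counted is not given in the sources used here, so their separate values are uncertain.

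CXCL5 had 221.3, 161.0 and 174.1 normalized counts against 241.6, 231.2 and 218.0, with overlap between si-Control 1 and si-CITED2 3. Its log2 fold change was 0.31 (95% interval 0.03 to 0.58, adjusted p = 0.1186), and without si-Control replicate 1 the adjusted p was 0.0222. CXCL6 had 34.7, 29.8 and 30.6 against 59.5, 33.4 and 50.4 (0.57, 95% interval 0.03 to 1.12, adjusted p = 0.1448). Summed over the 6 neutrophil chemokines, the groups had 3777.4 ± 203.4 and 3791.4 ± 268.5 normalized counts (SD, n = 3 each), a difference within the spread of the libraries. Without CXCL8 the other 5 summed to 2212.2 ± 175.3 and 2510.9 ± 127.3. The ratio of CXCL8 to CXCL1 counts within a library was 1.55 to 1.87 in the si-Control and 1.08 to 1.17 in the si-CITED2 libraries, and that of CXCL2 to CXCL1 0.958 to 1.22 and 0.82 to 0.898, both chosen after the values were seen and not tested. Of the receptors of these chemokines, CXCR1 had no count in any library and CXCR2 had 60.4, 60.4 and 55.3 against 48.6, 50.6 and 58.1 normalized counts (-0.17, adjusted p = 0.6286).

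No other CXC chemokine passed the threshold. CXCL14, an epithelial chemokine without the neutrophil-attracting motif, had 22.2, 24.2 and 16.5 normalized counts in the si-Control libraries and 8.5, 13.4 and 11 in those labelled si-CITED2. Its groups did not overlap, and its log2 fold change of -0.93 (SE 0.35, 95% interval -1.67 to -0.19) stood at an adjusted p of 0.08008. CXCL16, a membrane-bound chemokine recognised by CXCR6, had 401.7, 429.1 and 390.6 against 455.3, 367.9 and 387.8, which overlapped (-0.02, 95% interval -0.22 to 0.18, adjusted p = 0.9234). The exons of CXCL16 overlap MED11 on the other strand, so its value is uncertain if the counting ignored strand. MED11 had 363.5, 399.3 and 356.5 against 301.1, 320.1 and 338.5 normalized counts (log2 fold change -0.22, adjusted p = 0.1161). The CXCR3 ligands CXCL10 and CXCL11, known interferon targets, ranged from 18.2 to 31.8 and from 9.8 to 22 over all libraries. Neither passed the threshold (CXCL10 -0.07, 95% interval -0.73 to 0.58, adjusted p = 0.9095, and CXCL11 -0.07, 95% interval -0.90 to 0.76, adjusted p = 0.9347).

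Of the CCL chemokines 4 were tested, and CCL28 was called. CCL28, a chemokine of mucosal epithelia that binds CCR10 and CCR3, had 208.0, 235.1 and 190.6 normalized counts in the si-Control libraries and 293.9, 284.7 and 257.5 in those labelled si-CITED2. The groups did not overlap (log2 fold change 0.39, SE 0.11, 95% interval 0.16 to 0.63, adjusted p = 0.02259). Its adjusted p was above 0.05 in 4 of the 6 fits that left out 1 library, those without si-Control 1 (0.06036), without si-Control 3 (0.09897), without si-CITED2 1 (0.07845) and without si-CITED2 2 (0.08032), with log2 fold changes from 0.33 to 0.48 over all alternatives.

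CCL20, the ligand of CCR6, had 57.8, 70.0 and 73.0 normalized counts against 52.2, 48.7 and 47.1. All si-Control libraries were above those labelled si-CITED2, at an adjusted p of 0.1414 (log2 fold change -0.44, SE 0.19, 95% interval -0.84 to -0.03). CCL22, a ligand of CCR4, had 22.2, 21.7 and 11.8 against 31.6, 20.1 and 30.7 (0.51, 95% interval -0.18 to 1.2, adjusted p = 0.3326). CCL5 (RANTES) had 381.3, 341.4 and 360.1 against 343.6, 395.6 and 341.8, overlapping throughout (0.00, 95% interval -0.20 to 0.20, adjusted p = 0.9961). CCL5, CXCL2 and CXCL16 were the 3 tested ligands whose 95% interval lay within 0.25 of 0 on the log2 scale, while 12 of the 19 ligands not called had an interval that included 0 and 7 did not. The limits given above on the read counts of CXCL2 and CXCL16 apply to their intervals too.

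The precision differed with depth. For the 12 tested ligands whose mean reached 100 normalized counts in each group, the SE of the log2 fold change was 0.06 to 0.17, and for the 12 with a mean under 100 in both groups it was 0.19 to 0.46. With 3 libraries a group, an exact two-sided permutation test of a single gene cannot give a p under 0.1, so the calls rest on the edgeR fit, which shares information on spread across genes.

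Of the 52 ligands below the filter, 21 had no count in any library, which allows at most the 0.104 to 0.154 CPM given above, counting error only. These include IL25 and the T helper cytokines IL2, IL3, IL9, IL13, IL17A, IL17F, IL21, IL22 and IL31. A further 20 had at most 3 counts in every library and 6 reached 4 to 9. The other 5 reached 10 in at least 1 library. CCL2, the monocyte attractant, had 2, 0 and 2 counts in the si-Control and 6, 5 and 15 in the si-CITED2 libraries. IL27, a subunit of IL-27, had 2, 2 and 16 in the si-Control and 0 in each library labelled si-CITED2, so most of its reads came from si-Control 3. CCL27 had 6, 12 and 7 against 3, 3 and 7, CXCL17 had 16, 12 and 5 against 8, 16 and 9, and IL19 is given above. With the filter lowered to a single count, CCL2 (adjusted p = 0.01628) and IL27 (adjusted p = 9.754e-03) also passed the threshold.

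Genes that receive, process or control these ligands were followed in lists chosen by role. Of the 35 receptor genes tested, 7 were higher and 2 lower (20% and 5.71%, against 9.36% and 8.09% of all genes, median log2 fold change 0.12). Besides IL6ST, OSMR, IL31RA and IL27RA, the higher receptors were IL13RA1 (0.62, adjusted p = 1.311e-06) and IL4R (0.27, adjusted p = 5.34e-03), which pair to bind IL4 and IL13, and IL10RB (0.38, adjusted p = 4.639e-03), a shared chain of the IL-10 family. Besides IL6R, the lower one was IL17RB (-0.59, adjusted p = 0.02036), which binds IL25 and IL17B. The count of lower receptors was 1 without si-Control 2, si-CITED2 2 or si-CITED2 3, and with DESeq2. All genes called lower in these fits numbered 882, 881, 897 and 1204, against 1319 in the main fit.

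Of 45 signalling genes tested, 14 were higher and 2 lower (31.1% and 4.44%, against 9.36% and 8.09% of all genes, median 0.06). Of 14 genes of the NF-kappaB system in that list, 8 were higher and 0 were lower, beside those same shares of all genes. This grouping was made after the values were seen and was not tested. The alternative fits were counted for the whole list only. Among the subunits NFKB1 (0.36), NFKB2 (0.30), RELA (0.15, adjusted p = 0.04766) and RELB (0.46) rose, and REL was at 0.15 (adjusted p = 0.1763). The IkappaB family genes NFKBIA (0.35), NFKBIE (0.41) and NFKBIZ (0.28, adjusted p = 0.04324) rose, while NFKBIB was at -0.14 (adjusted p = 0.3025). The feedback gene TNFAIP3 was called (0.22, adjusted p = 0.0439) although its groups overlapped, and BIRC3 was at 0.10 (adjusted p = 0.4963). None of the 3 genes of the activating kinase complex was called, with CHUK at -0.08, IKBKB at -0.13 and IKBKG at -0.14 (adjusted p = 0.3403, 0.3747 and 0.1518). IRAK2 (0.54) and MAP3K7 (0.18), which relay IL-1 signals, also rose, as did JAK1 (0.43), STAT5A (0.47), CEBPB (0.33) and SOCS3 (0.27, adjusted p = 0.04793), the feedback inhibitor of IL6ST signalling. CEBPD (-0.51) fell, and STAT3, the main factor downstream of IL6ST, was at -0.06 (adjusted p = 0.4971). The number of higher signalling genes was 9 without TMM scaling and also without si-Control 2, si-CITED2 2 or si-CITED2 3. All genes called higher in these fits numbered 1390, 1175, 1135 and 1189, against 1527 in the main fit.

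Among other secreted ligands, of 11 tested, 5 were higher and 1 was lower (45.5% and 9.09%, against 9.36% and 8.09% of all genes, median 0.19). LTB, a membrane-bound TNF family ligand, had 74.7, 75.7 and 60.0 normalized counts in the si-Control and 229.5, 247.5 and 277.2 in the si-CITED2 libraries, with no overlap (log2 fold change 1.83, adjusted p = 8.15e-08). The colony-stimulating factors CSF2 (54.2, 60.4 and 58.8 against 131.1, 194.9 and 216.9, 1.65, adjusted p = 6.389e-06) and CSF3 (6.2, 11.3 and 3.5 against 19.4, 20.1 and 15.3, 1.30, adjusted p = 0.04208) were also separate between groups. MIF rose by 0.17 (adjusted p = 0.03785) and KITLG fell by 0.27 (adjusted p = 0.02139) on the log2 scale. The number of higher ligands in this list was 3 without si-Control 3, si-CITED2 2 or si-CITED2 3, where all genes called higher numbered 1286, 1135 and 1189. KITLG was not called without si-Control 2, si-Control 3, si-CITED2 1 or si-CITED2 3.

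Genes that control the decay of cytokine mRNAs went both ways, with 3 of 12 higher and 3 lower (25% each, median -0.05). The shares of all genes were 9.36% and 8.09%. ZC3H12A (Regnase-1), which cleaves IL6 mRNA, rose by 0.54, ZFP36L1 by 0.68 and RC3H1 (Roquin-1) by 0.36 on the log2 scale. ZFP36 (tristetraprolin), which binds AU-rich elements of cytokine mRNAs, fell by 0.48, ZFP36L2 by 0.33 and KHSRP by 0.15. Their part in the levels of the ligands was not tested.

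**Figure D4:**
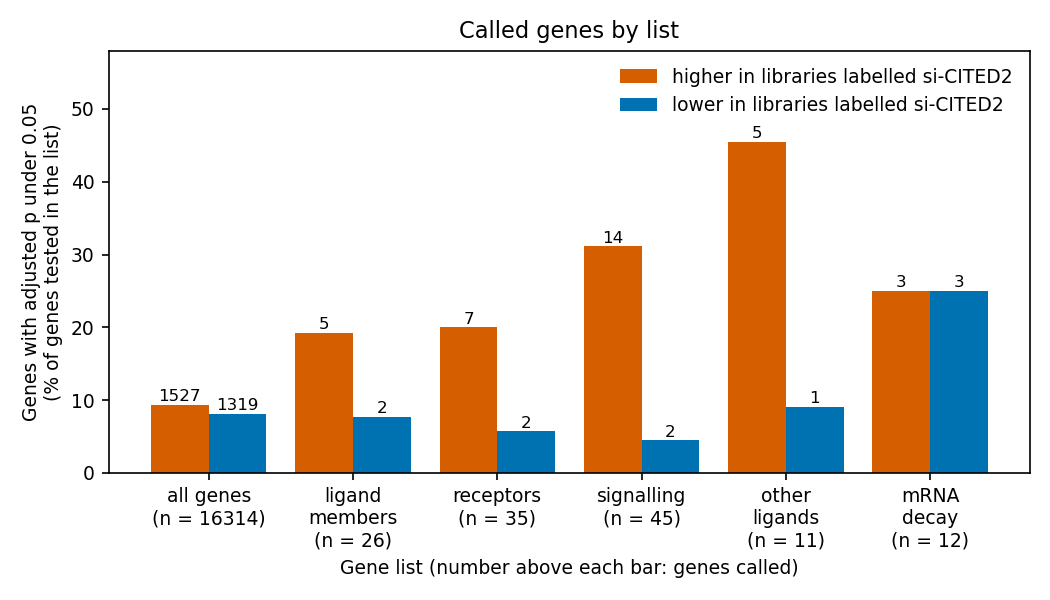
Percent of the tested genes of each list with an adjusted p under 0.05, higher (orange) or lower (blue) in the libraries labelled si-CITED2, with the number of genes above each bar. For the ligand members 5 of 26 were higher and 2 lower, beside 1527 and 1319 of all 16314 genes.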

How the data were processed

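RNA was extracted with Trizol and libraries were made with a SMARTer mRNA-seq kit, per the labels. The authors deposited raw read counts per gene symbol for each library, without normalization. The submitters' processing notes name TopHat, edgeR and hg19. The counting program, annotation and use of strand are not given in the sources used here, and antisense, overlapping or near-identical genes are therefore uncertain. Of 25737 rows, the row with most counts was kept for each of 286 repeated symbols, leaving out 0.0821% of the counts.

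Counts were tested with edgeR 4.0.16 (R 4.3.3): filterByExpr defaults (16314 genes), TMM, the quasi-likelihood test and Benjamini-Hochberg adjustment over all genes, at 0.05. SEs were taken from the F statistic and 95% intervals from the t distribution. Libraries were grouped by their labels. Groups of 3 limit precision, and intervals for counts cover counting error only.

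Every tested ligand is named, with those below the filter that reach 10 counts, the called genes of the other lists (some are counted but not reported here by name) and the receptor chains of IL24, IL11, IL6, LIF, IL-1 and CXCL8. The members and lists were chosen with earlier results of these data known. Alternatives were a replicate block, DESeq2 1.42.0, no TMM, other filters, summed rows, a fold limit of 1.5 and leaving out each library. Promoters came from RefSeq, and protein sequences were not used here.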

Additional observations from a re-analysis of the deposited data

How the results depend on the processing

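The calls of IL24, IL11, IL6 and IL32 held in all 12 alternative fits. The number of higher ligands was 5, was 3 to 7 when each library was left out in turn, and was 2 with a fold change over 1.5 also required. The number of lower ligands was 2, was 1 to 2 with libraries left out, and was 1 with that fold limit. With no filter on low counts 7 of 57 ligands tested were higher and 3 lower, against 1595 and 1410 of all 21775 genes in that fit. Fits without 1 library tested 27 or 28 ligands. Over the lists of other genes, whose sizes are given above, 30 were higher (23 to 27 with libraries left out) and 8 lower (5 to 8). Of all 16314 genes, 1527 were higher and 1319 lower with all libraries kept. With libraries left out, 1135 to 1519 genes were higher and 881 to 1328 lower, of 16400 to 16729 tested. CITED2 mRNA had log2 fold changes of 0.17 to 0.29 with libraries left out and of 0.22 without TMM (adjusted p = 0.05184).

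The replicate numbers gave no sign of pairing over all genes, since the deviations of same-numbered libraries correlated at -0.038 to 0.034. With 3 libraries a group this does not show that the libraries were unpaired. With the replicate number as a block, 7 ligands were higher, the 5 above with LIF (adjusted p = 0.02621) and IL18 (0.03227), and 2 were lower. The block left 1405 genes higher and 1154 lower of all genes, against 1527 and 1319, and CITED2 mRNA at 0.24 (adjusted p = 0.04636).

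Among ligands not called, the sign turned in some fits that left out 1 library, where the log2 fold changes ranged from -0.077 to 0.044 for CCL5, from -0.318 to 0.076 for CXCL10, from -0.44 to 0.228 for CXCL11, from -0.112 to 0.044 for CXCL16, from -0.059 to 0.047 for CXCL2, from -0.046 to 0.24 for CXCL3, from -0.153 to 0.828 for IL10 and from -0.438 to 0.038 for IL12A. CCL5 also turned with DESeq2 (-0.001), without TMM (-0.015) and with no filter (-0.001). The cause was not tested.

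Depth limits the 52 ligands below the filter, 2 of which (CCL2 and IL27) passed the threshold with no filter, and groups of 3 limit the rest.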
